A study of Glycine max with 2 samples.

Results

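Hydrolases split chemical bonds by adding water, and 44 genes of this kind overlapped regions of altered DNA methylation in flower buds of a male-sterile soybean line. They were the genes listed for hydrolase activity in the deposited GO results, without those also listed for nucleic acid binding, cysteine-type peptidase activity or transport. This left 44 of 69 hydrolase-listed genes, out of 334 genes with a GO annotation and 485 genes annotated to a differentially methylated region (DMR). The 2 libraries came from flower buds taken at full bloom, 1 from the CMS line NJCMS5A and the other from NJCMS5B, its maintainer. In cytoplasmic male sterility (CMS) a plant inherits through its mother a cytoplasm with which it makes no functional pollen. NJCMS5A was bred by backcrossing to NJCMS5B, which is fertile and keeps the sterile line going. For each line, buds of different sizes from its plants were pooled and 1 whole-genome bisulfite library was sequenced, so no difference has a replicate check and every test compares the 2 libraries, not the lines.

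Bisulfite turns unmethylated cytosine into a base read as T and spares methylated cytosine. Of all calls at the cytosines of a DMR, the percentage still read as C is its methylation level, and 1 level was given per DMR, with no split into the CG, CHG and CHH contexts in which plants methylate DNA. In plants, methylation of promoters is often linked to low transcription, whereas methylation within gene bodies is found in many active genes. Among hydrolases, nucleoside-triphosphatases (NTPases) cleave ATP or GTP and drive motors, helicases and switches. Glycosidases cut the sugar chains of starch and cell walls, esterases and phosphatases release acids or phosphate, and peptidases cut proteins. Opening of the anther wall and growth of the pollen tube both rely on enzymes that loosen cell walls.

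The 44 genes were joined to 78 DMRs, in 80 pairs of gene and DMR, since 2 DMRs were each annotated to a pair of hydrolase genes. The level was lower in NJCMS5A (hypo-methylated) in 46 of the 78 DMRs, or 59.0% (95% Wilson interval 47.9–69.2), and higher (hyper-methylated) in 32. In the 522 DMRs of other genes, 343 were hypo-methylated, or 65.7% (61.5–69.65). Over all 3527 DMRs of the comparison, 55.8% were lower and 44.2% higher in NJCMS5A. When the calls behind each level were tested by two-sided Fisher's exact test, 100% of these DMRs passed an adjusted p of 0.05, which is how DMRs were chosen, so the calls of the 78 add nothing to their selection. These 78 DMRs drew on 440209 calls from the NJCMS5A library and 433020 from that of NJCMS5B, at a median depth of 11.8 and 11.6 calls per site. Intervals reflect counting error only and take each call as independent, although neighbouring cytosines are often read in 1 molecule.

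In the 46 hypo-methylated DMRs the median level was 4.95% in NJCMS5A, against 18.2% in NJCMS5B. In the 32 hyper-methylated DMRs it was 19.95% in NJCMS5A and 5.51% in NJCMS5B, so the pair of levels was close to a mirror image. In the hypo-methylated DMRs of other genes the medians were similar, at 4.33% in NJCMS5A and 19.4% in NJCMS5B. In their hyper-methylated DMRs they were 19.4% in NJCMS5A and 4.75% in NJCMS5B. The level was under 1% in NJCMS5A in 12 of the 78 DMRs and in NJCMS5B in 5. Of the 522 DMRs of other genes, it was under 1% in NJCMS5A in 76 and in NJCMS5B in 44. No level was corrected for cytosines that bisulfite left unconverted. Differences were moderate, with a median of 12.2 percentage points, against 13.3 in the DMRs of other genes. Only 5 of the 78 DMRs differed by 20 points or more, compared with 91 of the 522 others, and every DMR of the series differed by at least 10 points.

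**Figure D1:**
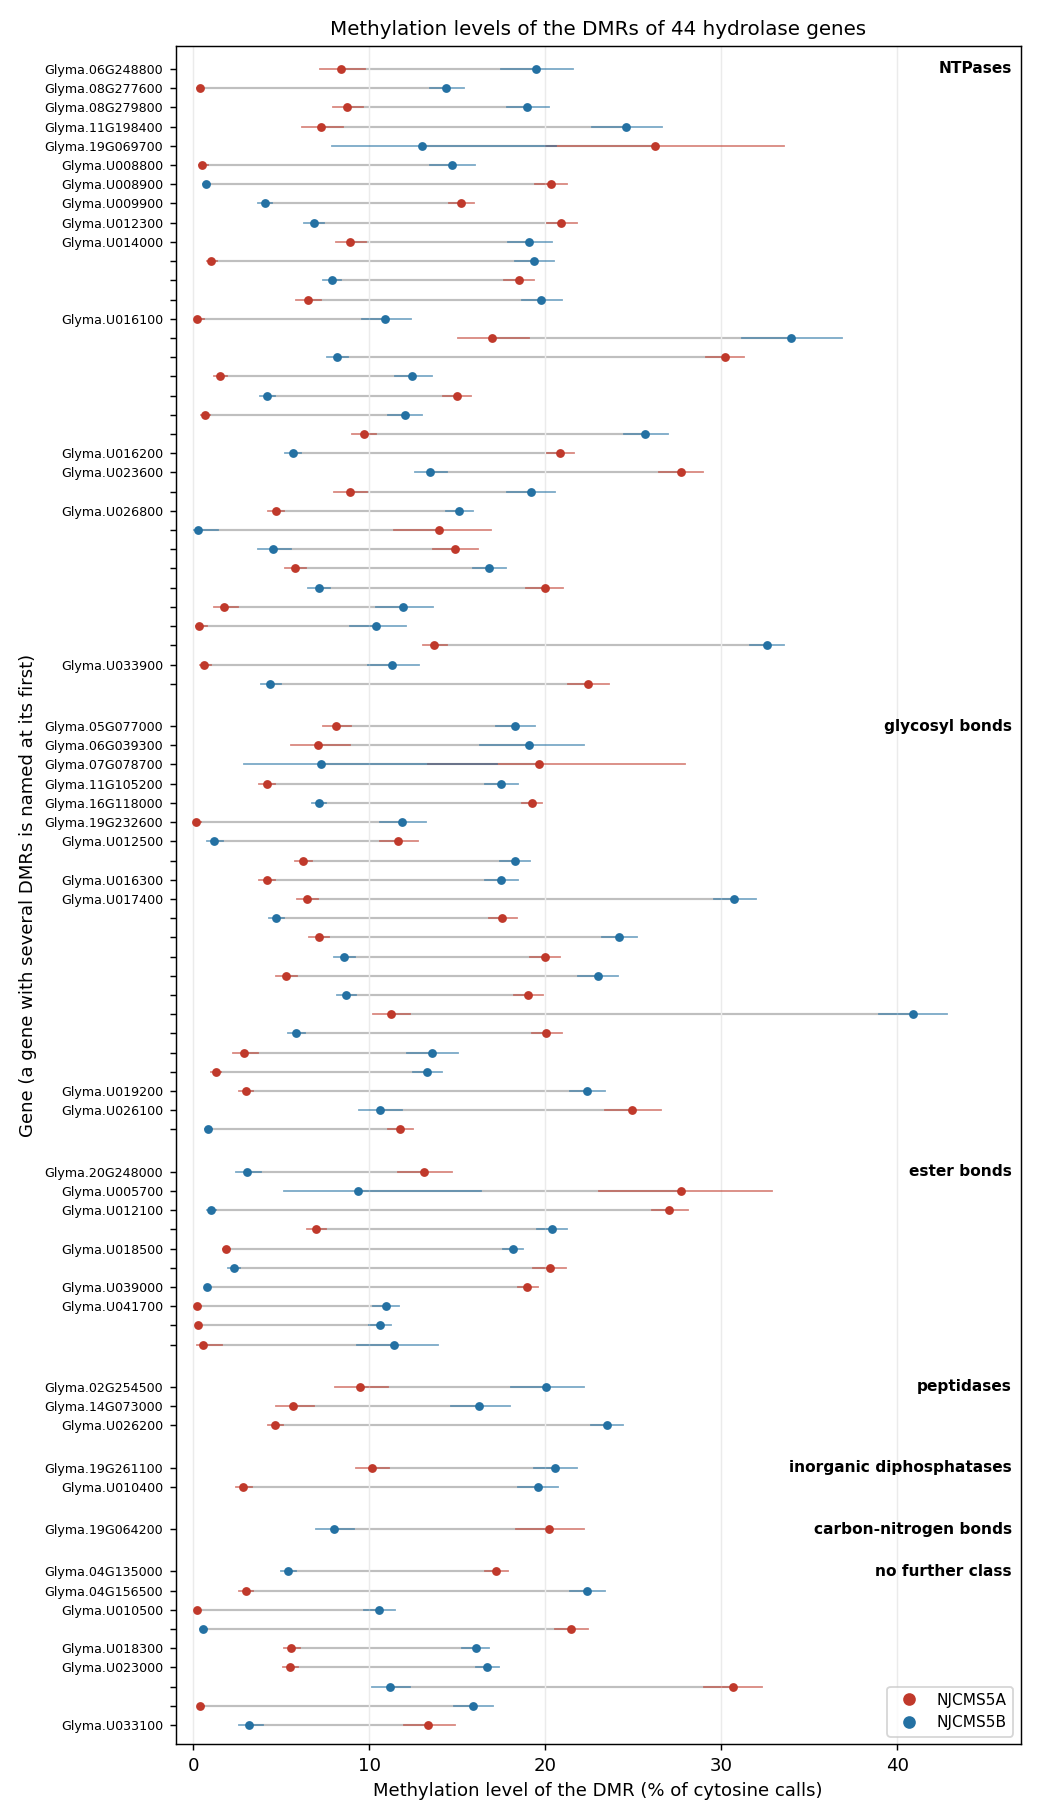
Methylation level (x axis, % of cytosine calls) of each DMR of the 44 hydrolase genes, 1 row per pair of gene and DMR, grouped by GO class. Points give NJCMS5A in red and NJCMS5B in blue with 95% Wilson intervals as coloured lines, and grey lines join the libraries. The highest level, 40.9%, was that of NJCMS5B in a DMR of Glyma.U017400, and the 2 rows with overlapping intervals are Glyma.07G078700 and Glyma.19G069700.

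By gene, all DMRs were hypo-methylated in 19 of the 44 hydrolase genes, or 43.2% (29.7–57.8). All were hyper-methylated in 14 genes, or 31.8% (20–46.6), and 11 genes, or 25.0% (14.6–39.4), had DMRs of both directions. Over all 485 genes the shares were 57.9% hypo-methylated, 18.1% hyper-methylated and 23.9% with both directions. The hyper-methylated share of the hydrolase genes was thus above the background and the hypo-methylated share below it, while the share with both directions was near it. Whether the contrast holds at a higher depth was not tested. With a depth of at least 10 in each library, 7 hyper-methylated and 17 hypo-methylated hydrolase genes were left. The background was not counted at that depth. This is a description, since genes share DMRs and scaffolds and are not replicates. Among the 15 NTPases each of the 3 classes held 5 genes. Among the 29 other hydrolase genes, 14 were hypo-methylated, 9 hyper-methylated and 6 had both directions, and the intervals of the NTPases and of the others overlapped in each class.

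**Figure D2:**
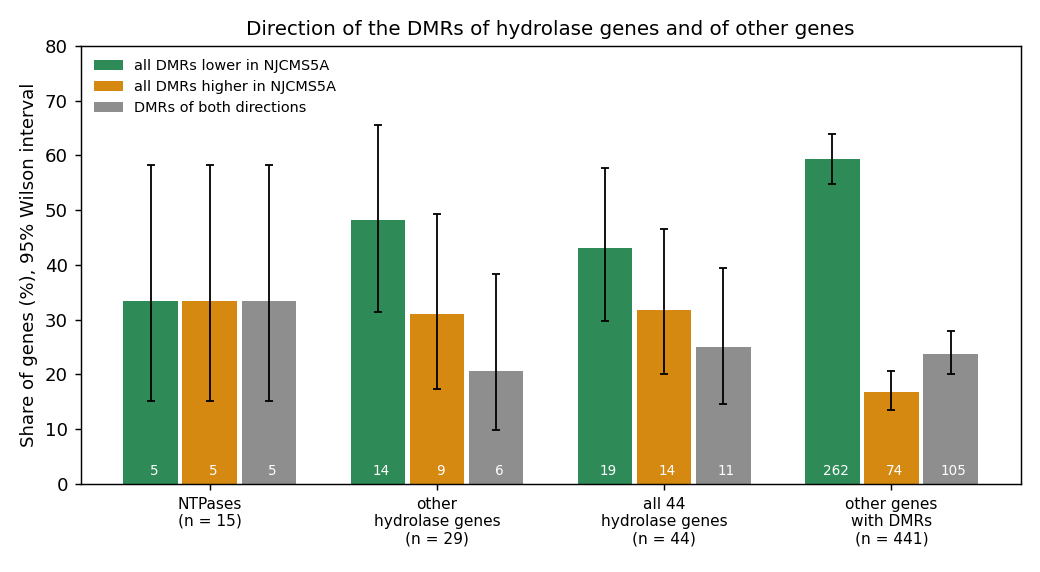
Share of genes (y axis, %) whose DMRs were all lower in NJCMS5A (green), all higher in NJCMS5A (orange) or of both directions (grey). Bars stand for the 15 NTPases, the 29 other hydrolase genes, all 44 and the 441 other genes with DMRs, error bars are 95% Wilson intervals and white digits are gene counts. The orange bar of the 44 hydrolase genes is at 31.8%, that of the other genes at 16.8%.

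Over all genes with DMRs, placed and unplaced genes differed in how often a gene held both directions, whereas their hyper-methylated shares were close. Most hydrolase DMRs, 65 of 78, lay on scaffolds that the assembly has not placed on a chromosome, and 36 lay on scaffold_21 alone. The DMRs of other genes were placed much alike, with 420 of 522 on such scaffolds and 173 on scaffold_21. Among hydrolase DMRs, the hypo-methylated share was 53.85% (29.1–76.8) on chromosomes and 60.0% (47.9–71.0) on scaffolds. Gene names place 18 of the 44 genes on a chromosome, of which 12 were hypo-methylated, 6 hyper-methylated and 0 had both directions. Each of these 18 genes had only 1 DMR and so could not hold both directions. The other 26 are named as unplaced, of which 7 were hypo-methylated, 8 hyper-methylated and 11 had both directions. All 13 hydrolase genes with more than 1 DMR were among these 26. Over all genes, 153 of 200 genes named for a chromosome were hypo-methylated, 36 hyper-methylated and 11 of both directions. Of 285 unplaced genes, 128 were hypo-methylated, 52 hyper-methylated and 105 of both directions, so the hyper-methylated share was 18% in placed and 18.25% in unplaced genes. What sets unplaced genes apart, the number of DMRs per gene included, was not tested. Of the 18 genes, 6 were annotated only through a UTR to a DMR on a sequence other than the one in their name, namely Glyma.04G156500, Glyma.06G039300, Glyma.08G277600, Glyma.11G105200, Glyma.11G198400 and Glyma.19G232600. All of these 6 DMRs were hypo-methylated, and whether the annotation of these pairs is right was not tested.

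Functional regions followed the authors' annotation, with the promoter as the 2 kb upstream of the transcription start site. A promoter DMR was annotated in 26 of the 44 genes, hypo-methylated in 13 and hyper-methylated in 16, with 3 genes in both counts. Over all genes with a promoter DMR, 235 of 330 had one that was lower and 137 one that was higher in NJCMS5A. In the 5′UTR, 18 of 22 hydrolase genes were lower and 4 higher in NJCMS5A, next to 154 and 38 of 185 over all genes. The 18 include all 6 genes tied to another sequence than their name gives. Without those pairs, 16 hydrolase genes with a 5′UTR DMR were left. Of 26 hydrolase genes with an exon DMR, 19 had a lower and 12 a higher one, beside 239 and 87 of 279 over all genes. In introns the counts were 18 and 13 of 27 genes, beside 215 and 89 of 254. In 3′UTRs they were 10 and 5 of 14 genes, beside 100 and 30 of 126. Among NTPases, the promoter DMR was lower in NJCMS5A in 4 genes and higher in 7, whereas among the other hydrolase genes 9 had each. A DMR often spans several regions of a gene, so these counts are not independent of each other.

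**Figure D3:**
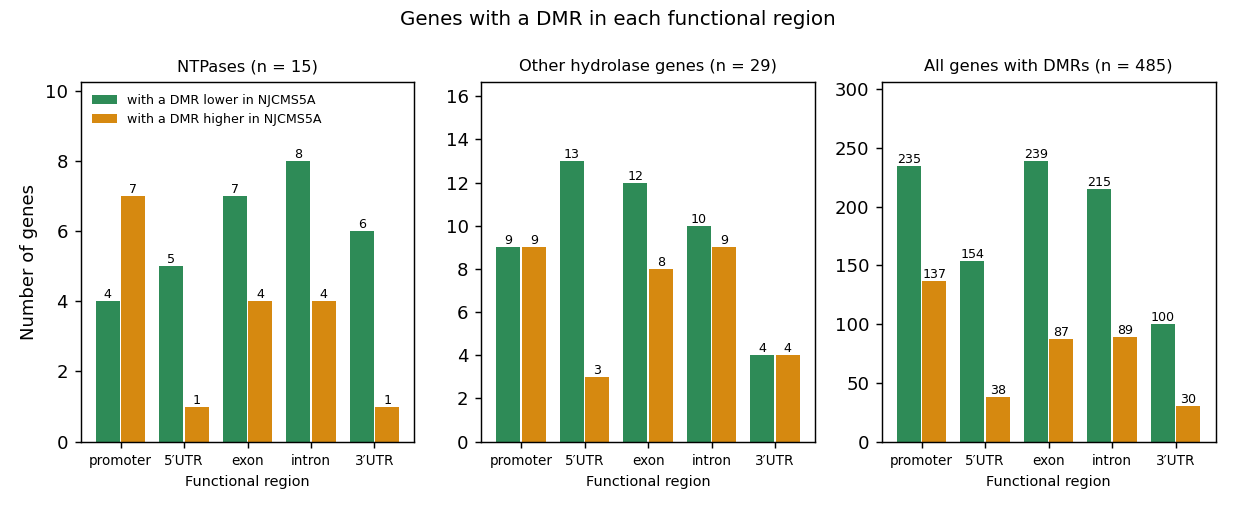
Number of genes (y axis) with a DMR that was lower (green) or higher (orange) in NJCMS5A in each functional region (x axis), for the 15 NTPases, the 29 other hydrolase genes and all 485 genes with DMRs. A gene with both directions in a region is in both bars, and the y axes differ between panels. In the promoters of NTPases the orange bar, at 7 genes, is above the green bar, at 4, whereas over all genes it is 137 against 235.

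Of the 15 NTPases, 10 were listed for ATP binding and 4 for GTP binding. Helicase activity was listed for 9 of them, all as DNA helicases, enzymes that unwind DNA strands. Of these, 3 were hypo-methylated, 4 hyper-methylated and 2 of both directions. The 4 hyper-methylated helicase genes each had 1 DMR, and each of these DMRs included promoter sequence. In Glyma.U012300 the promoter DMR had a level of 20.9% (20.1–21.8) in NJCMS5A and 6.83% (6.29–7.42) in NJCMS5B. In Glyma.U016200 it was 20.8% (20.1–21.6) in NJCMS5A and 5.64% (5.22–6.10) in NJCMS5B. In Glyma.U009900 the DMR ran from the promoter into an exon and an intron, with 15.2% (14.5–15.9) in NJCMS5A and 4.045% (3.67–4.45) in NJCMS5B. These 3 lay on scaffold_21 and rested on 674 to 812 cytosines each, so their intervals were narrow. The fourth, Glyma.19G069700 on chromosome 19, held only 18 cytosines, at a level of 26.25% (20.1–33.6) in NJCMS5A and 13.0% (7.88–20.6) in NJCMS5B. Its call was weak, at an adjusted p of 0.00935 in Fisher's exact test, and was lost when each cytosine was counted once. This gene was listed for helicase and microtubule motor activity alike.

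The 3 hypo-methylated helicase genes included Glyma.06G248800, named in the study as an ABC-2 type transporter family protein. ABC transporters spend ATP to move compounds across membranes, although this gene was not listed for transport in the GO table and so stayed among the members. Its DMR on chromosome 6, 42001930 to 42003009, covered exon, intron and 3′UTR and had a level of 8.38% (7.19–9.74) in NJCMS5A and 19.5% (17.5–21.6) in NJCMS5B. A region that the study amplified for this gene, 42000516 to 42001028, ended 901 bp short of this DMR and shares no base with it. The study reports that bisulfite treatment of that region and its whole-genome data did not match. Glyma.11G198400 was hypo-methylated at 7.25% in NJCMS5A, against 24.6% in NJCMS5B, in a DMR of scaffold_211 annotated to both of its UTRs. Glyma.U008800, listed for GTPase, ATPase and four-way junction helicase activity, had 0.507% (0.307–0.835) in NJCMS5A and 14.7% (13.4–16.0) in NJCMS5B over exon, intron and 3′UTR. The next gene by number on scaffold_208, Glyma.U008900, an ATPase that like it was listed for ADP binding, went the other way. The promoter DMR of Glyma.U008900 had 20.3% (19.4–21.2) in NJCMS5A and 0.703% (0.519–0.952) in NJCMS5B, the second largest increase, of 19.6 points, among well-covered hydrolase DMRs (100 or more cytosines, depth 10 or more in each library). The DMRs of this pair lay at 306 to 1600 and at 6147 to 8537 of the scaffold.

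Microtubule motors carry loads along the tracks of the cytoskeleton and move chromosomes at division. Besides Glyma.19G069700, 3 genes were listed for this activity. Glyma.08G279800 had a hypo-methylated intron DMR on chromosome 8, at 8.73% (7.93–9.62) in NJCMS5A and 19.0% (17.8–20.2) in NJCMS5B. Glyma.08G277600, tied by its 5′UTR to a DMR of scaffold_44, had 0.354% in NJCMS5A and 14.4% in NJCMS5B. In Glyma.U033900 the 2 ends of the gene differed in direction. The DMR from the promoter into the gene had 0.591% in NJCMS5A and 11.3% in NJCMS5B, whereas that over the exon and 3′UTR had 22.4% in NJCMS5A and 4.37% in NJCMS5B.

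GTPases act as switches that are on with GTP and off once it is cleaved, and 4 members were listed as such. Glyma.06G248800 and Glyma.U008800, described above, were hypo-methylated, and the other 2 held DMRs of both directions. Glyma.U014000, which the pathway table places in endocytosis, had 4 DMRs that tiled 6892 bp of scaffold_21 with gaps as small as 2 bp. The first 2 were hypo-methylated. The promoter DMR had 8.91% in NJCMS5A and 19.1% in NJCMS5B. The next one, from promoter to intron, had 1.005% (0.752–1.34) in NJCMS5A and 19.4% (18.3–20.5) in NJCMS5B. Direction then turned 2 times within the gene. The third DMR, over exon and intron, had 18.5% in NJCMS5A and 7.86% in NJCMS5B, and the last, reaching the 3′UTR, 6.502% in NJCMS5A and 19.8% in NJCMS5B.

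Glyma.U016100, listed for GTP binding and GTPase activity, had 7 DMRs over 29078 bp of scaffold_21, of which 5 were lower and 2 higher in NJCMS5A. Both hyper-methylated DMRs lay in introns. The larger of them had 30.2% (29.1–31.3) in NJCMS5A and 8.17% (7.60–8.78) in NJCMS5B, a difference of 22.05 points that was the widest among the NTPases. Just before it, an intron DMR had the opposite direction, with 16.98% in NJCMS5A and 34.0% in NJCMS5B. The other had 14.96% in NJCMS5A and 4.21% in NJCMS5B, and it too followed a hypo-methylated intron DMR, of 1.51% in NJCMS5A and 12.4% in NJCMS5B. Both ends of the gene were hypo-methylated. The DMR at the 3′UTR had 0.197% in NJCMS5A and 10.9% in NJCMS5B, and the one over the gene start 0.649% in NJCMS5A and 12.0% in NJCMS5B. The DMR further out in the promoter had 9.67% in NJCMS5A and 25.7% in NJCMS5B. When the calls of all 7 DMRs were summed, the gene had 12.6% in NJCMS5A and 11.75% in NJCMS5B, so the opposed differences nearly cancelled.

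Glyma.U026800, listed as an ATPase, a helicase and an endopeptidase, had 8 DMRs over 21998 bp of scaffold_25, 5 lower and 3 higher in NJCMS5A. Around its start a lower DMR was followed by 2 higher ones. The outermost promoter DMR had 4.67% in NJCMS5A and 15.1% in NJCMS5B. The adjoining promoter DMR of 48 cytosines had 13.9% (11.4–16.9) in NJCMS5A and 0.249% (0.0440–1.40) in NJCMS5B. The next, over promoter, 5′UTR and exon, had 14.85% in NJCMS5A and 4.51% in NJCMS5B. Within the gene, direction turned again. A DMR over exon and intron had 5.74% in NJCMS5A and 16.8% in NJCMS5B, and the one after it 19.95% in NJCMS5A and 7.13% in NJCMS5B. Towards its other end 3 DMRs in a row were hypo-methylated. The first had 1.71% in NJCMS5A and 11.9% in NJCMS5B, and the second 0.325% in NJCMS5A and 10.4% in NJCMS5B. The last, over exon and 3′UTR, had 13.7% in NJCMS5A and 32.6% in NJCMS5B. That fall by 18.9 points was the third largest among well-covered hydrolase DMRs. Summed over its DMRs the gene had 10.4% in NJCMS5A and 17.2% in NJCMS5B. The last NTPase with both directions, Glyma.U023600, a helicase, had a promoter DMR at 27.7% in NJCMS5A and 13.5% in NJCMS5B. Its exon and intron DMR had 8.89% in NJCMS5A and 19.2% in NJCMS5B.

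**Figure D4:**
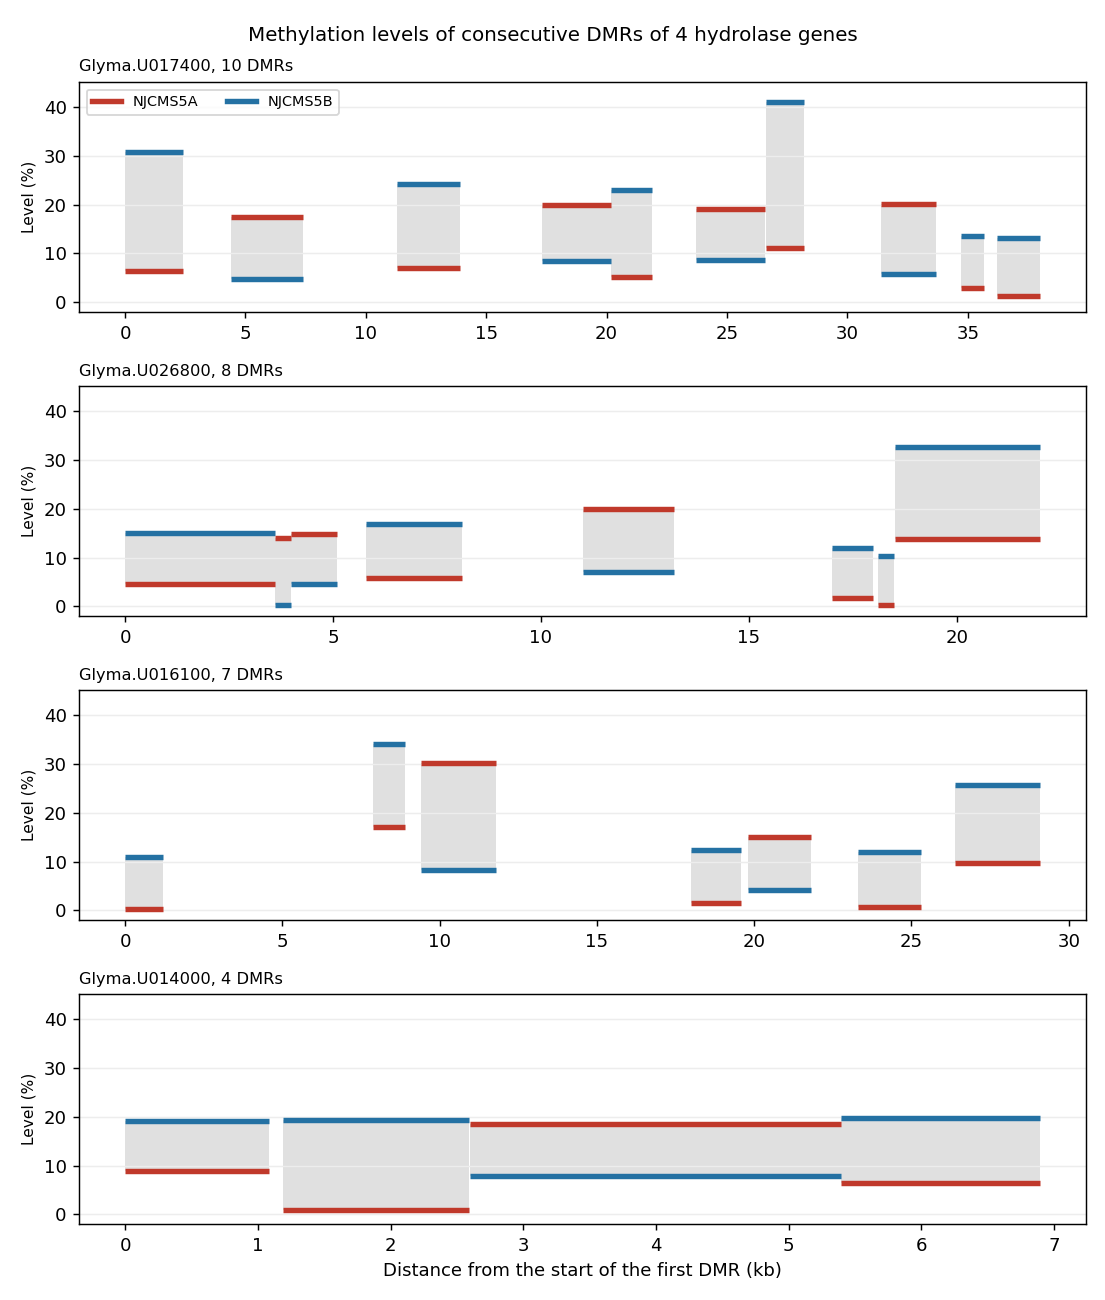
Methylation level (y axis, % of cytosine calls) of consecutive DMRs against the distance from the start of the first DMR (x axis, kb) in the 4 hydrolase genes with 4 or more DMRs. Red bars are NJCMS5A, blue bars NJCMS5B, grey boxes span the difference, and gaps hold no DMR. In Glyma.U017400 the red and blue bars change places 8 times along 10 DMRs.

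Glyma.U017400, named beta glucosidase 42 in the study, had the most DMRs of all members. Beta glucosidases release glucose from sugar chains and from stored plant compounds, and the pathway table places this gene in starch and sucrose metabolism, cyanoamino acid metabolism and phenylpropanoid biosynthesis. Its 10 DMRs spread over 37992 bp of scaffold_21 from 2888181 to 2926172 and covered 22105 bp of it, 6 of them lower and 4 higher in NJCMS5A. Direction changed between 8 of the 9 neighbouring pairs. The largest fall among all hydrolase DMRs was here, over exon and intron, with 11.2% (10.2–12.3) in NJCMS5A and 40.9% (39.0–42.8) in NJCMS5B, at depths of 11.4 and 8.15. The next, in the DMR at the 3′ end, had 6.45% (5.86–7.10) in NJCMS5A and 30.7% (29.6–31.9) in NJCMS5B. A further 2 hypo-methylated DMRs in the gene body had 7.11% and 5.23% in NJCMS5A, against 24.2% and 23.0% in NJCMS5B. The 4 hyper-methylated DMRs all lay in the gene body and were alike, with 17.6 to 20.1% in NJCMS5A and 4.69 to 8.66% in NJCMS5B. At the promoter 2 DMRs in a row were hypo-methylated. The outer one had 1.25% in NJCMS5A and 13.3% in NJCMS5B, and the inner one 2.87% in NJCMS5A and 13.5% in NJCMS5B. Over all 10 DMRs the summed calls gave 12.9% in NJCMS5A and 14.1% in NJCMS5B.

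The other glycosidases numbered 10, making 11 genes listed for glycosyl bonds, of which 6 were hypo-methylated, 3 hyper-methylated and 2 of both directions. Polygalacturonase activity, which degrades the pectin between plant cells, was listed for 2 of them, and their directions were opposite. Glyma.16G118000 was hyper-methylated in a DMR of 1480 cytosines on chromosome 16, 26320056 to 26325552, that covered the gene from promoter to 3′UTR, with 19.2% (18.7–19.8) in NJCMS5A and 7.13% (6.75–7.53) in NJCMS5B. Glyma.U016300 was hypo-methylated from promoter to intron, with 4.15% in NJCMS5A and 17.5% in NJCMS5B. The same DMR was also annotated to the 5′UTR of Glyma.11G105200, so these 2 glycosidases rest on 1 measurement. Glyma.U019200, listed for carbohydrate binding too, had 2.97% (2.61–3.38) in NJCMS5A and 22.4% (21.4–23.4) in NJCMS5B from promoter to intron, the second largest fall among the well-covered DMRs. This DMR was also tied to the 5′UTR of Glyma.04G156500, a member listed for zinc ion binding with no further class of hydrolase.

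Glyma.05G077000 was hypo-methylated over 5′UTR, exon and intron on chromosome 5, at 8.12% (7.34–8.96) in NJCMS5A and 18.3% (17.2–19.4) in NJCMS5B. Glyma.06G039300, tied by its 5′UTR to a DMR of chromosome 13, had 7.06% in NJCMS5A and 19.1% in NJCMS5B. Glyma.19G232600, tied in the same way to scaffold_21, had 0.167% (0.0650–0.429) in NJCMS5A, the lowest level of that library among the members, and 11.9% (10.6–13.2) in NJCMS5B. The study names this gene a pyridoxal phosphate-dependent transferase, whereas the GO table lists it for O-glycosyl hydrolase activity. Glyma.U026100 was hyper-methylated in both of its DMRs. Its promoter DMR had 11.8% in NJCMS5A and 0.813% in NJCMS5B, and the DMR at the gene start 24.9% in NJCMS5A and 10.6% in NJCMS5B. Glyma.U012500, listed for sialidase activity, was hyper-methylated in the promoter, at 11.6% in NJCMS5A and 1.14% in NJCMS5B. Its exon was hypo-methylated, at 6.24% in NJCMS5A and 18.3% in NJCMS5B. The promoter DMR of Glyma.07G078700 on chromosome 7 held just 11 cytosines, with 19.6% (13.3–27.9) in NJCMS5A at depth 10.2 and 7.27% (2.86–17.3) in NJCMS5B at depth 5. Its adjusted p of 0.0423 in Fisher's exact test was the weakest of the members and was lost when each cytosine was counted once.

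The 6 genes acting on ester bonds were 1 hypo-methylated, 3 hyper-methylated and 2 of both directions. Glyma.U012100, named DNAJ homologue 2, held the largest rise of all hydrolase DMRs. DNAJ proteins are co-chaperones that help other proteins fold, and the GO table lists this gene for nuclease activity and heat shock protein binding. Its DMR over promoter, 5′UTR and exon had 27.05% (26.0–28.1) in NJCMS5A and 1.02% (0.796–1.31) in NJCMS5B. The depth there was 11.5 in NJCMS5A and 9.53 in NJCMS5B. Its second DMR, reaching the 3′UTR, had the reverse direction, with 6.95% in NJCMS5A and 20.4% in NJCMS5B. Glyma.U039000, ferrochelatase 2, belongs to a kind of enzyme that inserts iron into porphyrin to make haem, and is also listed for endonuclease activity. Its DMR of 1363 cytosines, on scaffold_44, had 19.0% (18.4–19.6) in NJCMS5A and 0.752% (0.632–0.894) in NJCMS5B.

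Phosphatases remove phosphate groups, and 2 members were listed as such. Glyma.U041700, an acid phosphatase, had 3 DMRs in a row on scaffold_681 from its promoter to its 3′UTR, all hypo-methylated. The summed level of these DMRs was 0.255% in NJCMS5A and 10.75% in NJCMS5B, so nearly none of the 11781 NJCMS5A calls was methylated. The DMRs cover 6181 bp, but not evenly. The DMR in the promoter alone, of 2418 bp, held only 57 cytosines and 544 of these calls. Glyma.U018500 had DMRs on different scaffolds. That on scaffold_21, over exon, intron and 3′UTR, had 20.2% in NJCMS5A and 2.29% in NJCMS5B, and that on scaffold_44, tied to its 5′UTR alone, had 1.86% in NJCMS5A and 18.15% in NJCMS5B. Its place among genes of both directions rests on that second pair, and whether the annotation of it is right was not tested. Lipases, which cut fats, were represented by 2 hyper-methylated genes. Glyma.20G248000, a triglyceride lipase, had 13.1% (11.6–14.7) in NJCMS5A and 3.05% (2.42–3.84) in NJCMS5B in an intron on chromosome 20. Glyma.U005700, listed for phospholipase C activity, had 27.7% (23.1–32.9) in NJCMS5A at depth 16.5 and 9.35% (5.16–16.4) in NJCMS5B at depth 5.63, over only 19 cytosines. Its adjusted p of 5.74e-05 in Fisher's exact test was lost when each cytosine was counted once.

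All 3 genes classed as peptidases were hypo-methylated, as were 57.9% of all genes with DMRs. Glyma.U026800, classed above as an NTPase, was listed for peptidase activity too and had DMRs of both directions. Cysteine-type peptidases were left out of the set. Glyma.14G073000, the proteasome alpha subunit F1, belongs to the barrel-shaped complex that degrades tagged proteins. Its promoter DMR on chromosome 14, 6128546 to 6129217, had 5.68% (4.68–6.86) in NJCMS5A and 16.2% (14.6–18.0) in NJCMS5B over 142 cytosines. For this DMR the study designed nested primers for bisulfite PCR of 362 bp within it, 6128619 to 6128980 (build Wm82.a2.v1). They are shown because they mark the piece of promoter that was open to a check by cloning, and because their letters show bisulfite chemistry. Capitals mark the 15 bases shared by the outer and inner forward primers.
outer forward: taatagagatatttTTGAATGATATTGAA
outer reverse: ttaatattcatactccataatccctaatt
inner forward: TTGAATGATATTGAAttaaaagatgataa
inner reverse: ataattctttctacctccattacatcac
The forward primers hold 0 C and the reverse primers 0 G, which fits a converted strand, in which unmethylated C has become T. The reverse primers pair with that strand and the forward primers with its copy. Clone results were not analysed here.

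Glyma.U026200, an aspartic-type endopeptidase on scaffold_23, had 4.64% (4.24–5.08) in NJCMS5A and 23.5% (22.6–24.4) in NJCMS5B over exon and 3′UTR. On the same scaffold lay the hyper-methylated glycosidase Glyma.U026100, whose DMRs ended at 786217, while the DMR of Glyma.U026200 began at 791118. Glyma.02G254500, listed for signal peptide processing, had 9.44% (8.06–11.03) in NJCMS5A and 20.01% (18.0–22.2) in NJCMS5B over exon and intron on chromosome 2.

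Inorganic diphosphatases split pyrophosphate, a by-product of many syntheses, and the pathway table places both members in oxidative phosphorylation. Both were hypo-methylated. Glyma.U010400, pyrophosphorylase 3, had 2.84% (2.44–3.31) in NJCMS5A and 19.6% (18.5–20.7) in NJCMS5B in its promoter on scaffold_21. Glyma.19G261100, pyrophosphorylase 1, had 10.15% (9.25–11.1) in NJCMS5A and 20.55% (19.3–21.8) in NJCMS5B over 5′UTR, exon and intron on chromosome 19. The member acting on carbon-nitrogen bonds of linear amides, Glyma.19G064200, was hyper-methylated over intron and 3′UTR, at 20.2% (18.3–22.2) in NJCMS5A and 7.96% (6.95–9.11) in NJCMS5B.

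No further class was listed for 6 members, among them Glyma.04G156500. Glyma.U010500, listed for protein binding, held a promoter DMR with 21.5% (20.6–22.4) in NJCMS5A and 0.531% (0.381–0.742) in NJCMS5B, the largest increase among the well-covered DMRs. Only 5 bp away, the DMR over the start of the gene had 0.178% (0.0814–0.387) in NJCMS5A and 10.55% (9.72–11.5) in NJCMS5B. Each library was thus nearly free of methylated calls where the other was not. Glyma.U023000, listed for manganese ion binding, had 3 adjoining DMRs on scaffold_22 that alternated. The middle one, in the promoter, had 30.7% in NJCMS5A and 11.2% in NJCMS5B, the third largest increase among the well-covered DMRs. The outer promoter DMR had 0.382% in NJCMS5A and 15.9% in NJCMS5B, and the DMR reaching into the gene 5.51% in NJCMS5A and 16.7% in NJCMS5B. Glyma.U018300 was hypo-methylated in its promoter, at 5.56% in NJCMS5A and 16.0% in NJCMS5B. Glyma.04G135000 was hyper-methylated in an intron, at 17.2% (16.6–17.9) in NJCMS5A and 5.38% (4.98–5.80) in NJCMS5B. Glyma.U033100 was hyper-methylated over promoter and exon, at 13.35% in NJCMS5A and 3.18% in NJCMS5B.

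Close neighbours of opposite direction, as in Glyma.U010500 and Glyma.U023000, were common in the table as a whole. Of 11 pairs of neighbouring DMRs of 1 hydrolase gene within 100 bp of each other, 8 had opposite directions, or 72.7%. For pairs of 1 annotated gene of any kind it was 58 of 70, or 82.9%. Over all DMRs, in genes or not, 341 of 426 such pairs did, or 80.05%. Within 1000 bp the share was lower, at 11 of 18 pairs (61.1%) for the hydrolase genes. It was 95 of 141 (67.4%) for annotated genes and 703 of 1099 (64.0%) over all DMRs. Most neighbouring DMRs of Glyma.U017400 lay further apart than 100 bp, so the first share does not describe its alternation. How far the calling of regions from sliding windows sets this share was not tested. In all, 31 of the 44 genes had 1 DMR and 13 had more. Of these 13 genes, 11 held both directions, and Glyma.U026100 and Glyma.U041700 held 1 direction. The same was not counted for other genes with more than 1 DMR. Over all 485 genes with DMRs, 23.9% held both directions, near the 25.0% of the 44 hydrolase genes.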

How the data were processed

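Whole-genome bisulfite sequencing of 1 library from NJCMS5A and 1 from NJCMS5B was analysed from tables that the authors made with Bismark (version 0.12.5, per the labels) and swDMR, which slid a window of 1000 bp by 100 bp and kept an FDR of at most 0.05. Soybean gene names and positions follow the deposited annotation, which carries the build Wm82.a2.v1. The methylation level was deposited by the authors as a fraction without correction for conversion, and the depth as a coverage signal, the mean number of calls per cytosine. The count of cytosine sites per DMR was deposited too, under a heading that calls them mC sites. The authors' p-values, ratios, level differences and GO and KEGG enrichment statistics were not used. The GO and KEGG tables gave gene lists only.

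Methylated and unmethylated calls were recovered as level times depth times sites, which came within 3.9e-10 of whole numbers. Each DMR was tested by Fisher's exact test (two-sided), and p was adjusted by the Benjamini-Hochberg method over 3527 DMRs, all of which the authors had already called. Shares carry 95% Wilson intervals. No test was run between gene groups. On simulated data, 176 of 200 planted differences of 10 points were recovered among 3527 DMRs, each with its planted sign, and 13 DMRs without a planted difference passed. The simulated calls were independent and no DMR was selected beforehand, so these counts do not give the error rate of the real DMRs. The work was done in Python 3.11.15 with pandas 2.3.3, scipy 1.17.1, numpy 2.4.6 and, for plots, matplotlib 3.10.9.

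The members, the GO classes and the rules below were chosen with earlier results of these data known. A gene was placed in 1 class, NTPases first. The levels of each DMR were given, as a range for 4 DMRs of Glyma.U017400, for genes that the study names, for those on a chromosome of their own name, for NTPases, for genes of both directions, and for the 3 largest increases and decreases among well-covered DMRs, those with 100 or more cytosines and a depth of 10 or more in each library. Other members were named with their levels. Of the member names, 0 were found in the reference gene table, so other names come from the study. Primer sequences come from its primer table. Levels outside DMRs, expression and clone sequences were not analysed here.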

Additional observations from a re-analysis of the deposited data

How the results depend on the processing

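No paired analysis was possible because each line had 1 library, and for the same reason no library could be left out. When each cytosine was counted once, 75 of the 78 DMRs stayed past the threshold and 3 did not, those of Glyma.07G078700, Glyma.19G069700 and Glyma.U005700, each of which held under 20 cytosines, while the direction of each DMR stayed as it was. With a minimum depth of 10 in each library, 18 hyper-methylated DMRs were left beside 34 hypo-methylated ones, hyper-methylated genes came to 7 and those of both directions to 7, hypo-methylated NTPases to 3, and genes with a 3′UTR DMR to 9. With a difference of at least 20 points, 2 hypo-methylated and 3 hyper-methylated DMRs were left, too few to show a balance of directions. They lay in 1 hypo-methylated, 3 hyper-methylated and 0 genes of both directions. Among NTPases, 0 were hypo-methylated, 1 hyper-methylated and 0 of both directions. The DMRs fell in 2 promoters, 1 5′UTR, 2 genes with exons, 2 with introns and 1 with a 3′UTR. On the 20 chromosomes alone, there were 7 DMRs lower and 6 higher in NJCMS5A, in 7 and 6 genes with 0 of both directions, among them 2, 1 and 0 NTPases, with DMRs in 4 promoters, 4 5′UTRs, 5 genes with exons, 9 with introns and 3 with 3′UTRs. Without the 6 pairs whose gene name gives another sequence, 13 genes and 3 NTPases were hypo-methylated. Glyma.U018500, unplaced by name and with DMRs on different scaffolds, was kept there. With all 69 hydrolase-listed genes, 31 were hypo-methylated and 20 of both directions, NTPases came to 10 hypo-methylated and 11 of both directions, and 42 genes had a promoter DMR. Each setting keeps a smaller or larger set of DMRs, and what sets the changes in these counts was not tested.

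Counting error is small beside most of the differences, and the spread between plants is unknown. The part of unconverted cytosines in levels under 1% was not tested.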

Other observations

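The 25 hydrolase-listed genes left out of the set were classed in the same way. Of these, 12 were hypo-methylated (48.0%, 95% Wilson interval 30.03 to 66.5), 4 hyper-methylated (16.0%, 6.40 to 34.65) and 9 of both directions (36.0%, 20.25 to 55.5). The intervals overlapped those of the 44 hydrolase genes in each class. Nucleic acid binding was listed for 14 of them, of which 8 were hypo-methylated, 2 hyper-methylated and 4 of both directions. Transport was listed for 9, with 5 hypo-methylated, 1 hyper-methylated and 3 of both directions, and cysteine-type peptidase activity for 7, with 2, 2 and 3.

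Carbohydrate metabolic process was listed for 10 of the 44 hydrolase genes, none of them an NTPase, out of 20 genes with DMRs. No hydrolase gene was listed for the cell wall as a cellular component, and 2 other genes with DMRs were.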
